A study of Mus musculus with 6 samples.

Results

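The genes described here are the 5 subunits of the acetylcholine receptor of muscle (Chrna1, Chrnb1, Chrnd, Chrne and Chrng) and 5 genes that build and hold the receptor cluster under the motor nerve ending (Agrn, Lrp4, Musk, Dok7 and Rapsn). They were taken by symbol from the rows of the array table that carry exactly 1 gene symbol. All 10 were found, among 23152 genes with a value, and each gene's value on an array is the mean of its 10 to 37 probe sets on the log2 scale. Total RNA came from the soleus, a slow hindlimb muscle, of male mice at 18 weeks of age after a 14 h fast. The 3 control samples (WT) were Gna13 flox/flox without Cre, and the 3 knockout samples (Gna13 MKO, here MKO) were Ckmm-Cre; Gna13 flox/flox, with 1 array per sample. The samples are labelled as biological replicates, and whether each came from 1 animal or from pooled animals is not stated, so p-values measure only the spread between these samples. Both groups therefore carried the floxed alleles, and only MKO carried Cre. Gna13 encodes the G protein subunit Gα13. Ckmm-Cre uses the creatine kinase promoter of striated muscle, so nerve, Schwann, vascular and connective tissue cells of the soleus are not its target. No group with Cre and unfloxed Gna13 is among the samples used here, so Cre itself and the loss of Gna13 cannot be told apart.

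At the neuromuscular junction, acetylcholine from the motor nerve opens a pentameric receptor in the muscle membrane. The fetal receptor contains the γ subunit, which the ε subunit replaces after birth, beside α, β and δ. Agrin released by the nerve binds Lrp4, which activates the kinase MuSK. Dok-7 activates MuSK from inside the fibre, and rapsyn anchors the receptors beneath the synapse. In innervated adult fibres most of these genes are transcribed mainly by the few nuclei under the synapse, while electrical activity represses the receptor genes elsewhere in the fibre. Denervation lifts that repression.

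That transcriptional control acts in part through short promoter elements. E-boxes (CANNTG, the same on both strands) bind myogenic factors such as MyoD and myogenin, and the N-box (CCGGAA) binds the Ets factor GABP at synaptic nuclei. The promoters of 4 receptor subunits are shown because they hold the pair of subunits whose values differed most between the groups (Chrna1 and Chrnb1) and the adult and fetal pair (Chrne and Chrng). Each runs 5′ to 3′ over the 250 bases before the RefSeq start in build GRCm38.p6, with E-boxes and N-boxes in capitals. Chrna1 is at chr2:73580339-73580588 (minus strand), Chrnb1 at chr11:69795938-69796187 (minus), Chrne at chr11:70619195-70619444 (minus) and Chrng at chr1:87205561-87205810 (plus).
Chrna1: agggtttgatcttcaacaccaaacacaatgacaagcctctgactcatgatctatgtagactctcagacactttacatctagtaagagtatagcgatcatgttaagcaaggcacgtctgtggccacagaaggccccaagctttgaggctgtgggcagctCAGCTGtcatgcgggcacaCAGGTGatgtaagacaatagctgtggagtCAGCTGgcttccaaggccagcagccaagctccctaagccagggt
Chrnb1: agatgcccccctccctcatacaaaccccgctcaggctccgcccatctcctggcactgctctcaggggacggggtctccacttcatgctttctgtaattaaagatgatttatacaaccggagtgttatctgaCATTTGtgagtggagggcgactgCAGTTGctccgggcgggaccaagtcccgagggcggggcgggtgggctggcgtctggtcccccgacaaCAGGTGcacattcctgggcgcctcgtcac
Chrne: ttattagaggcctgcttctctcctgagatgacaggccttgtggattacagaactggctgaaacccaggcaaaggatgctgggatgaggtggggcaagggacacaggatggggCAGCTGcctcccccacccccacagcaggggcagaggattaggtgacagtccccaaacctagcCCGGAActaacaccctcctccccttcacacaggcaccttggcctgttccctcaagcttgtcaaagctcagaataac
Chrng: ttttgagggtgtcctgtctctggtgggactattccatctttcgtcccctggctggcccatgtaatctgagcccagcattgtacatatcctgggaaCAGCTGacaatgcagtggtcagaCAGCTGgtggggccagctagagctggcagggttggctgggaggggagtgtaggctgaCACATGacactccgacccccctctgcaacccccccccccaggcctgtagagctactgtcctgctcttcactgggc

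The Chrna1 window held 3 E-boxes, and 2 of them had the letters CAGCTG, a form of the E-box. Their first bases lay 92 and 44 bases before the start. Chrng also held 3 E-boxes, 2 of them CAGCTG, at 155 and 132 bases before its start. Chrnb1 held 3 E-boxes and no CAGCTG. Chrne held 1 E-box, a CAGCTG at 138 bases before the start, and 1 N-box at 76 bases before the start. Among the 7 members with a promoter entry, it was the only gene with an N-box on either strand of this window. Of the other members in the RefSeq table, Musk held 3 E-boxes, 1 of them CAGCTG, at 68 bases before the start, while Agrn and Dok7 each held 1 E-box in 1 of their 2 annotated promoters. Chrnd, Lrp4 and Rapsn had no entry. Over all 32851 promoter windows of the same length, 66.2% held an E-box, 13.0% a CAGCTG and 12.0% an N-box. A match is a description of the letters and was not tested for binding.

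Of the 7 Gna13 probe sets, 5 were higher and 2 lower in MKO, so they gave no clear check of the genotype. Probe set 17257825 stood at 5.48, 6.23 and 6.16 on the WT arrays and at 3.43, 4.25 and 4.33 on the MKO arrays, a log2 difference of −1.95 (SE 0.40, limma adjusted p = 0.977 over all rows). All 3 MKO arrays lay below all 3 WT arrays. The mean of the 7 probe sets differed by 0.04 (SE 0.13). Of the other probe sets, 3 were apart in the opposite direction, 17257824 by 0.65 (SE 0.19), 17257828 by 0.51 (SE 0.13) and 17257829 by 0.67 (SE 0.13). The limma unadjusted p of 17257829 (0.000594) was below that of 17257825 (0.000935). The exon behind a probe set is not known here, so 17257825 was named from its values and is not an independent check. Groups did not overlap for 9.86% of all rows. Median probe set values per array lay between 4.87 and 4.95. MKO replicate 1 stood apart from the rest on the leading principal component over all genes (33.6, against −19.7 to 14.4 for the others, 32.8% of the variance). Genes that define slow and all muscle fibres (12 of 12 measured, Myh7, Tnnt1 and Ckm among them) had a mean log2 value between 10.3 and 10.4 on every array. Of these, 1 was under an unadjusted p of 0.05, where 2.41% of all genes were lower at that p. This was Des, lower in MKO by −0.23 (SE 0.06, limma adjusted p = 0.9997), with groups that did not overlap.

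The β subunit had the lowest p of the 10 genes. Chrnb1, which encodes a structural subunit common to the fetal and adult receptors, stood at 7.0, 7.17 and 6.86 in WT and at 6.22, 6.90 and 6.78 in MKO. MKO replicate 1 was the lowest array by far, and MKO replicate 2 lay above WT replicate 3, so the groups overlapped. The means were 7.01 ± 0.16 and 6.63 ± 0.36 (SD, n = 3), a log2 difference of −0.38 (SE 0.17, 95% interval −0.74 to −0.02), or a 1.30-fold lower value. Chrnb1 did not pass limma's adjustment over all genes (adjusted p = 0.9997, unadjusted p = 0.0394). It was the 1 member of 10 under an unadjusted p of 0.05, where 4.33% of all genes were called in either direction and 2.41% lower in MKO. That count fell to 0 under several other settings, and without MKO replicate 1 the difference was −0.17 (limma unadjusted p = 0.188, adjusted p = 0.909). MKO replicate 1 also had the lowest mean of the fibroblast markers (7.20, against 7.50 to 7.87 in WT and 7.58 to 7.61 on the other MKO arrays). Its mean of the endothelial markers was the lowest too (6.45, against 6.59 to 6.96 in WT), though MKO replicate 2 (6.57) also lay below the WT arrays and MKO replicate 3 stood at 6.71. The part of these markers in the Chrnb1 value was not tested. Much of the Chrnb1 value came from 1 probe set, 17264956, at 6.79, 6.47 and 5.65 in WT and at 3.67, 4.43 and 5.92 in MKO (difference −1.63, SE 0.57). MKO replicates 1 and 2 were low there and MKO replicate 3 was not. Without that probe set the gene differed by −0.25 (limma unadjusted p = 0.129). A brighter probe set, 17264955, had no overlap, at 8.89, 8.70 and 8.79 in WT and 8.57, 8.52 and 8.25 in MKO (difference −0.34, SE 0.14, limma adjusted p = 0.977 over all rows). In RNA from whole muscle, fewer cells of a type and less RNA per cell cannot be told apart.

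**Figure D1:**
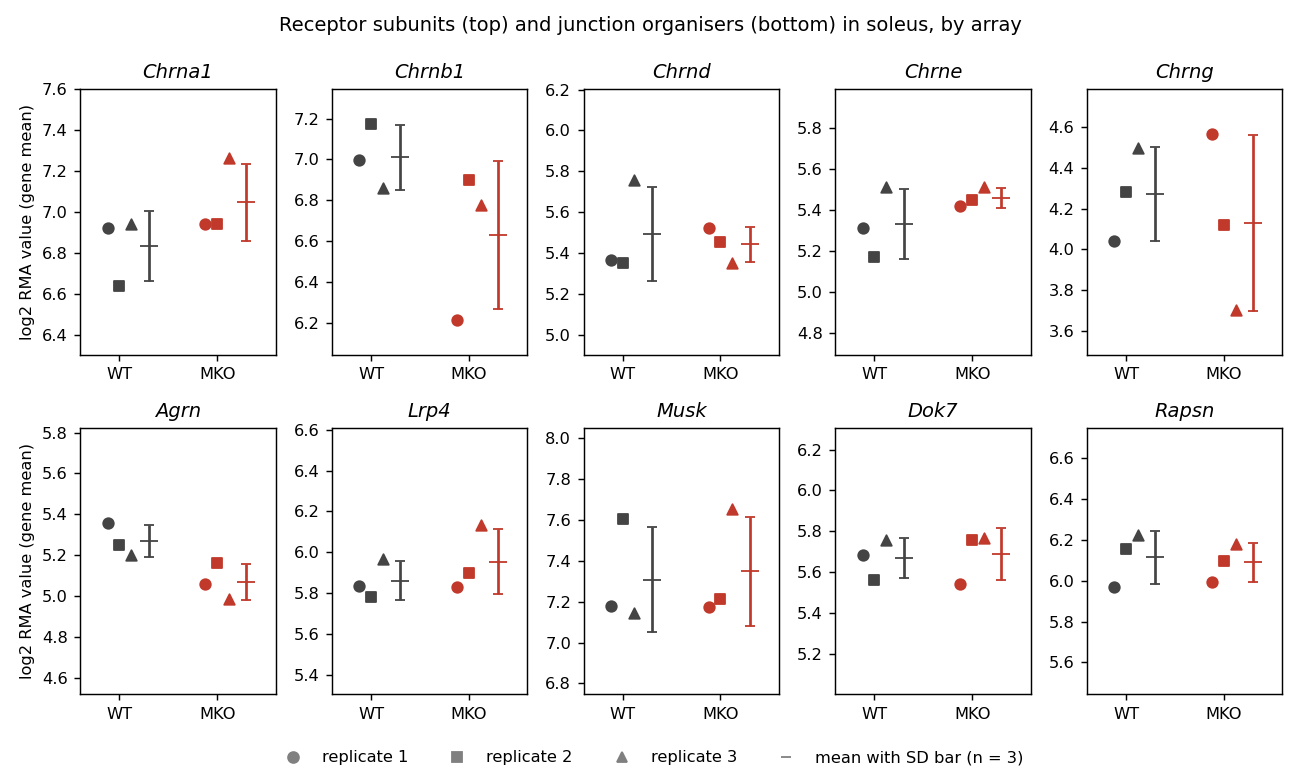
Log2 RMA value of each gene (mean of its probe sets, vertical axis) on the 3 WT (grey) and 3 MKO (red) arrays, with symbols for replicates and a mean with SD bar beside each group; every panel spans the same range of log2 units. The groups overlap in 9 of the 10 genes, Agrn is the exception, and Chrnb1 in MKO replicate 1 (6.22) is the lowest Chrnb1 value.

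Chrna1, whose product carries the main part of the acetylcholine binding site, lay on the other side. It stood at 6.92, 6.64 and 6.94 in WT and at 6.94, 6.94 and 7.27 in MKO. WT replicate 2 was low and MKO replicate 3 high, and the lowest MKO array missed the highest WT array narrowly (difference −0.0012), so the groups overlapped. The means of 6.83 ± 0.17 and 7.05 ± 0.19 (SD, n = 3) differed by 0.21 (SE 0.13, 95% interval −0.07 to 0.50), a 1.16-fold higher value that did not pass (limma adjusted p = 0.9997). All 10 Chrna1 probe sets were higher in MKO, by 0.06 to 0.40, while 10 of the 11 Chrnb1 probe sets were lower. Probe sets of 1 gene read the same RNA on the same arrays and are not replicates. The Chrna1 value was 0.11 without MKO replicate 3, 0.12 without WT replicate 2 and 0.02 between the group medians that the local pooled error (LPE) test compares.

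The ε subunit, which marks the adult receptor, was close in both groups. Chrne stood at 5.31, 5.17 and 5.51 in WT and at 5.42, 5.45 and 5.51 in MKO, with overlapping arrays. The difference was 0.13 (SE 0.14, limma adjusted p = 0.9997), with a 95% interval from 0.887-fold to 1.35-fold. Its probe sets went both ways, 10 of 15 higher and 5 lower. Probe set 17265301 was the lowest of them at −0.69 (SE 0.28), and 17265286, a dim one, the highest at 0.98 (SE 0.51).

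The γ subunit of the fetal receptor was dim. Chrng stood at 4.04, 4.28 and 4.50 in WT and at 4.57, 4.12 and 3.71 in MKO. The MKO arrays held both its highest and its lowest value. Only 2 of its 12 probe sets lay above the median level of all probe sets (4.84). The difference of −0.14 (SE 0.22, 95% interval −0.61 to 0.33, limma adjusted p = 0.9997) was 0.0047 without its lowest probe set, 17215220 (−1.75, SE 0.97), and the next lowest was 17215214 (−1.31, SE 0.57), both below that level. With the median of the probe sets it was 0.02, and with the probe sets above the median level only it was 0.15. The interval of the γ subunit ran from 0.655-fold to 1.25-fold, and the smallest shift that could be detected at this signal was not computed.

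Chrnd, the δ subunit of both receptor forms and the neighbour of Chrng on chromosome 1, stood at 5.37, 5.35 and 5.76 in WT and at 5.52, 5.46 and 5.35 in MKO. WT replicate 3 was the high array, and the others lay close together. The difference was −0.05 (SE 0.15, limma adjusted p = 0.9997), and it changed sign to 0.08 without WT replicate 3. Of its 13 probe sets 9 were lower and 4 higher, from −0.59 (17215206, SE 0.46) to 0.72 (17215193, a dim one, SE 0.56). Of the 9 above the median level, 8 were lower and 1 higher, and with those alone the difference was −0.16. Across the 5 subunits, 2 were higher and 3 lower in MKO, with 0 past the adjusted threshold.

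Agrn, which encodes the ligand of the pathway, was the 1 member whose MKO arrays all lay below the WT arrays. It stood at 5.36, 5.25 and 5.20 in WT and at 5.06, 5.16 and 4.99 in MKO. The means of 5.27 ± 0.08 and 5.07 ± 0.09 (SD, n = 3) differed by −0.20 (SE 0.14, 95% interval −0.50 to 0.10), a 1.15-fold lower value that did not pass (limma adjusted p = 0.9997). Arrays did not overlap for 9.25% of all genes, and for 4.99% in this direction, so 1 of 10 members is close to the background. After median centring of the arrays, or when its probe sets were summarised by their median, the Agrn groups overlapped. Agrin is made by muscle, Schwann and vascular cells as well as by motor neurons, whose RNA is mostly outside the muscle. The fibroblast and endothelial markers, 10 of 10 in each list, were also lower in MKO in the deposited values, where 46.6% of all genes were higher. In each list 1 marker was under a limma unadjusted p of 0.05, where 2.41% of all genes were lower at that p. These were Pdgfra (−0.34, SE 0.14, limma adjusted p = 0.9997) and Cldn5 (−0.73, SE 0.15, limma adjusted p = 0.666). The groups did not overlap for Cldn5 and overlapped for Pdgfra. After quantile normalization 2 fibroblast markers and 1 endothelial marker were higher, and 2 of each were without MKO replicate 1. The mean log2 values of these markers were 7.50 to 7.87 in WT and 7.20 to 7.61 in MKO for fibroblasts, and 6.59 to 6.96 and 6.45 to 6.71 for endothelium. Both means were lowest in MKO replicate 1, whereas Agrn was lowest in MKO replicate 3. The part of these markers in the Agrn value was not tested.

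The Agrn value depends on its dim probe sets. Of 37 probe sets, 22 were lower and 15 higher, but of the 21 above the median level 11 were lower and 10 higher. With those alone the difference was −0.02. The lowest, 17433985, stood at 5.22, 4.48 and 5.31 in WT and at 3.76, 3.81 and 1.91 in MKO, a log2 difference of −1.84 (SE 0.59). Probe set 17434013 differed by −1.33 (SE 0.42). Both are dim, and neither passed limma's adjustment over all rows (adjusted p = 0.977 for each). The highest Agrn probe set, 17434020, differed by 0.95 (SE 0.98) and rested on MKO replicate 1 alone, at 5.07 against 0.93 to 1.45 on the other arrays.

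**Figure D2:**
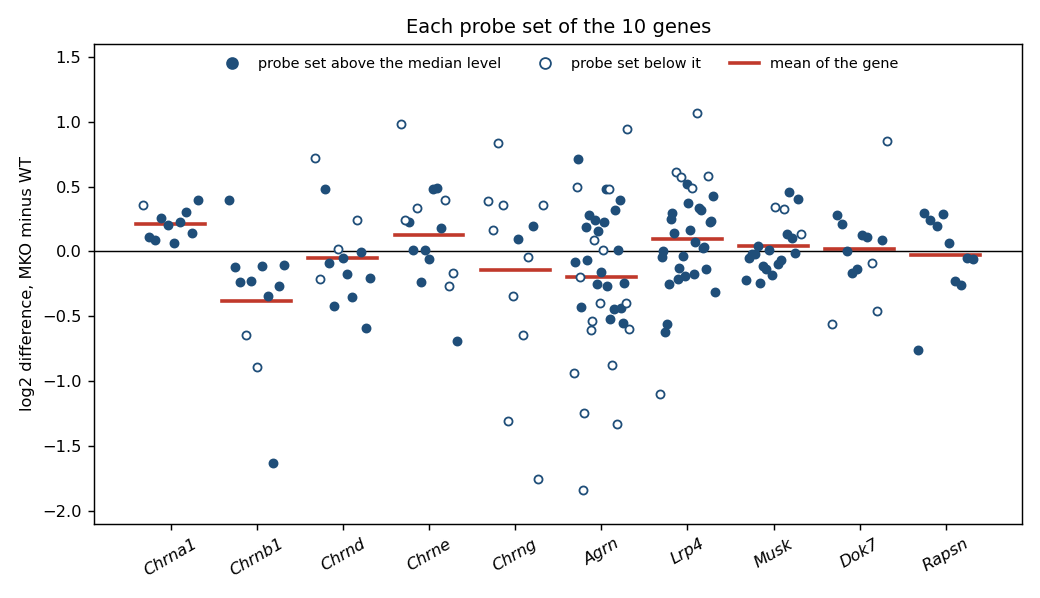
Log2 difference, MKO minus WT (vertical axis), of every probe set of the 10 genes, with filled points above and open points below the median level of all probe sets, and a red line at the mean of each gene. All 10 Chrna1 points lie above 0, 1 Chrnb1 probe set (17264956) lies at −1.63, and the lowest points of Agrn and Chrng are open.

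Lrp4, the agrin receptor on the fibre, stood at 5.83, 5.78 and 5.97 in WT and at 5.83, 5.90 and 6.13 in MKO. MKO replicate 3 was high and the rest overlapped. The difference was 0.09 (SE 0.13, 95% interval −0.19 to 0.38), with 20 of 32 probe sets higher (limma adjusted p = 0.9997). Its extreme probe sets were dim, 17373284 at −1.10 (SE 0.73) and 17373313 at 1.07 (SE 0.45).

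Musk, the kinase that Lrp4 activates, stood at 7.18, 7.60 and 7.14 in WT and at 7.18, 7.22 and 7.65 in MKO. Each group held 1 high array, WT replicate 2 and MKO replicate 3, and the other 4 arrays lay between 7.14 and 7.22. The difference was 0.04 (SE 0.15, 95% interval −0.29 to 0.37). It turned to −0.11 without MKO replicate 3. Its probe sets split into 9 higher and 11 lower, with 17414401 at 7.25, 7.45 and 7.12 in WT and 7.64, 7.83 and 7.72 in MKO, the highest of them at 0.46 (SE 0.17, limma adjusted p = 0.977 over all rows).

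Dok7, the adaptor that activates MuSK from inside the fibre, stood at 5.68, 5.56 and 5.76 in WT and at 5.54, 5.76 and 5.77 in MKO. The arrays of the groups overlapped almost completely, and the difference was 0.02 (SE 0.13, 95% interval −0.27 to 0.31, limma adjusted p = 0.9997). Its probe sets ranged from −0.56 (17436811, SE 0.36) to 0.85 (17436822, SE 0.53), both dim.

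Rapsn, which encodes the anchor of the receptor, stood at 5.97, 6.15 and 6.22 in WT and at 5.99, 6.10 and 6.18 in MKO. The difference was −0.03 (SE 0.13), and its 95% interval of 0.813-fold to 1.19-fold was the narrowest of the 10 on the log2 scale. All 10 Rapsn probe sets lay above the median level, 5 higher and 5 lower. Probe set 17373145 was the lowest of them, at 6.02, 5.87 and 6.15 in WT and at 5.04, 5.35 and 5.37 in MKO, with no overlap between the groups. Its log2 difference of −0.76 (SE 0.27) did not pass over all rows (limma adjusted p = 0.977), and the part of the transcript it reads is not known here. The groups were also apart, but higher in MKO, for probe set 17373147 (0.25, SE 0.18). They did not overlap for 9.86% of all rows.

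As a group the 10 genes were split evenly, 5 higher and 5 lower in MKO, and 0 passed limma's adjusted threshold of 0.05, as did 0 of all genes (0.0%). At an unadjusted p under 0.05 limma called 1 member and 1002 genes, while the LPE test called 25 genes at the adjusted threshold and no member. Their median log2 difference was −0.0019, beside −0.0138 over all genes, and their median absolute difference was 0.11, beside 0.11 over all genes. For 8 of the 10, the 95% interval lay within 1.5-fold in either direction. The exceptions were Chrnb1, which reached down to 0.60-fold, and Chrng, which reached down to 0.655-fold. The highest bound was 1.41-fold, for Chrna1. Spread within groups was of the size of these differences, with SDs from 0.08 to 0.26 in WT and from 0.05 to 0.43 in MKO. Of the 172 probe sets of these genes, 88 were higher and 84 lower. An unadjusted p under 0.05 was reached by 10 of them (5.81%), where 5.0% of all rows were, and 15 (8.72%) had groups that did not overlap, where 9.86% of all rows did. MKO replicate 3 was the highest array for 5 of the genes (Chrna1, Chrne, Lrp4, Musk and Dok7) and the lowest for 3 (Chrnd, Chrng and Agrn).

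**Figure D3:**
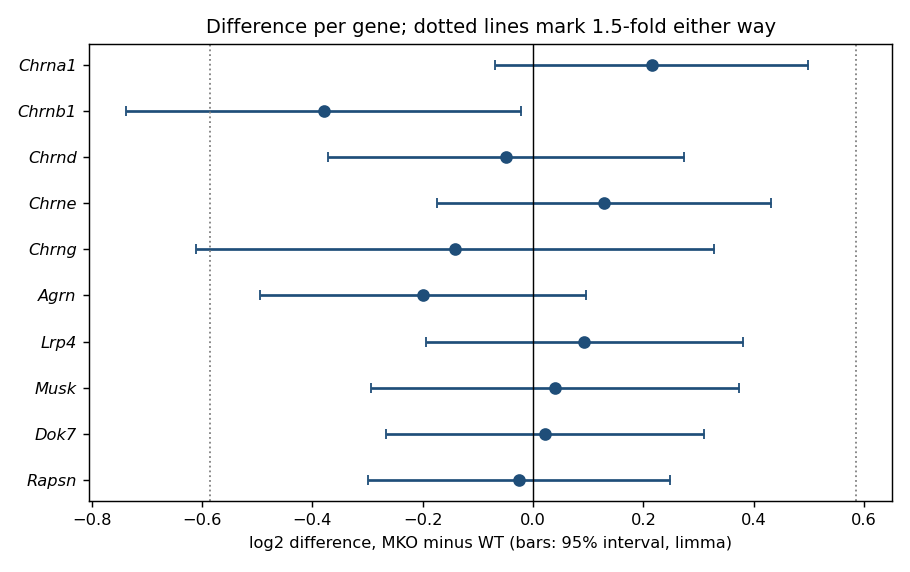
Log2 difference, MKO minus WT (horizontal axis), of the 10 genes as points, with bars for limma's 95% interval and dotted lines at 1.5-fold in either direction. Of the intervals, 9 include 0, that of Chrnb1 ends at −0.02, and only those of Chrnb1 and Chrng cross a dotted line.

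Genes that act around these members were examined by fixed lists, and 0 genes of any list passed limma's adjustment over all genes. Of all genes, 46.6% were higher in MKO, and the median log2 difference was −0.0138. At an unadjusted p under 0.05 limma called 4.33% of all genes in either direction and 2.41% lower, which is the background for the counts below. Proteins of the synaptic basal lamina and cleft were lower in 14 of 16, with a median log2 difference of −0.12. After quantile normalization 4 of the 16 were higher, and without MKO replicate 1, 5 were (median −0.08). The fibroblast markers given beside Agrn were also lower, with their lowest mean in MKO replicate 1, and their part in these values was not tested. At an unadjusted p under 0.05 the list held 1 lower gene, the proteoglycan Bgn (9.17 ± 0.08 in WT and 8.87 ± 0.20 in MKO, SD, n = 3), which differed by −0.30 (SE 0.10). Lama5, a laminin chain of the synaptic lamina, differed by −0.20 (SE 0.14), and Col4a3, a collagen chain, by 0.25 (SE 0.15). Relays downstream of MuSK and rapsyn were lower in 23 of 28, with a median of −0.05. After quantile normalization 13 of the 28 were higher (median −0.01), and without MKO replicate 1, 15 were (median 0.01). The adaptor Shc4, which binds MuSK, stood at 4.46, 4.96 and 4.86 in WT and at 3.98, 4.39 and 4.43 in MKO, a difference of −0.49 (SE 0.19). Of the 28 relays it was the only gene under an unadjusted p of 0.05, where 2.41% of all genes were lower. Postsynaptic cytoskeleton genes were lower in 13 of 19 with a median of −0.10, and 0 of them reached that p. Within it the syntrophins Sntb1 and Sntb2, partners of dystrophin and utrophin, differed by −0.29 (SE 0.16) and −0.28 (SE 0.15). The neuregulin, ErbB and Ets list was lower in 10 of 15 with a median of −0.07, and Egr1, an immediate early gene, was its 1 gene under that p (−0.73, SE 0.31), with overlapping arrays. Without MKO replicate 1 the medians of the cytoskeleton and ErbB lists were −0.04 and −0.01.

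Genes known to respond to denervation, which raises receptor transcription outside the synapse, had a median of −0.05, with 15 of 21 lower and 6 higher (median −0.02 after quantile normalization, −0.08 without MKO replicate 1). Of all genes, 46.6% were higher. The list was not split by the direction in which each gene responds, so its counts show no direction of a denervation response. At an unadjusted p under 0.05, 3 genes of this list were lower and 0 higher, where 2.41% of all genes were lower at that p. The arrays lay apart, lower in MKO, for 3 of the 21 and for 4.99% of all genes. Myog, a myogenic factor of the family known to bind E-boxes, stood at 6.82, 7.04 and 7.10 in WT and at 6.73, 6.39 and 6.32 in MKO. The groups did not overlap, and the difference was −0.51 (SE 0.14, limma adjusted p = 0.9997). Myh3, the embryonic myosin heavy chain, differed by −0.70 (SE 0.15, limma adjusted p = 0.786) and Ankrd1, a titin-associated stress protein, by −0.51 (SE 0.20, limma adjusted p = 0.9997). Ncam1, a cell adhesion molecule kept at the synapse in adult fibres, differed by −0.19 (SE 0.09), also with arrays that did not overlap. Of the receptor subunits, Chrnb1 (−0.38), Chrng (−0.14) and Chrnd (−0.05) were lower in MKO, and Chrna1 (0.21) and Chrne (0.13) were higher. Chrng and Chrnd changed sign under some other settings. A link between the subunits and the genes of this list was not tested.

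**Figure D4:**
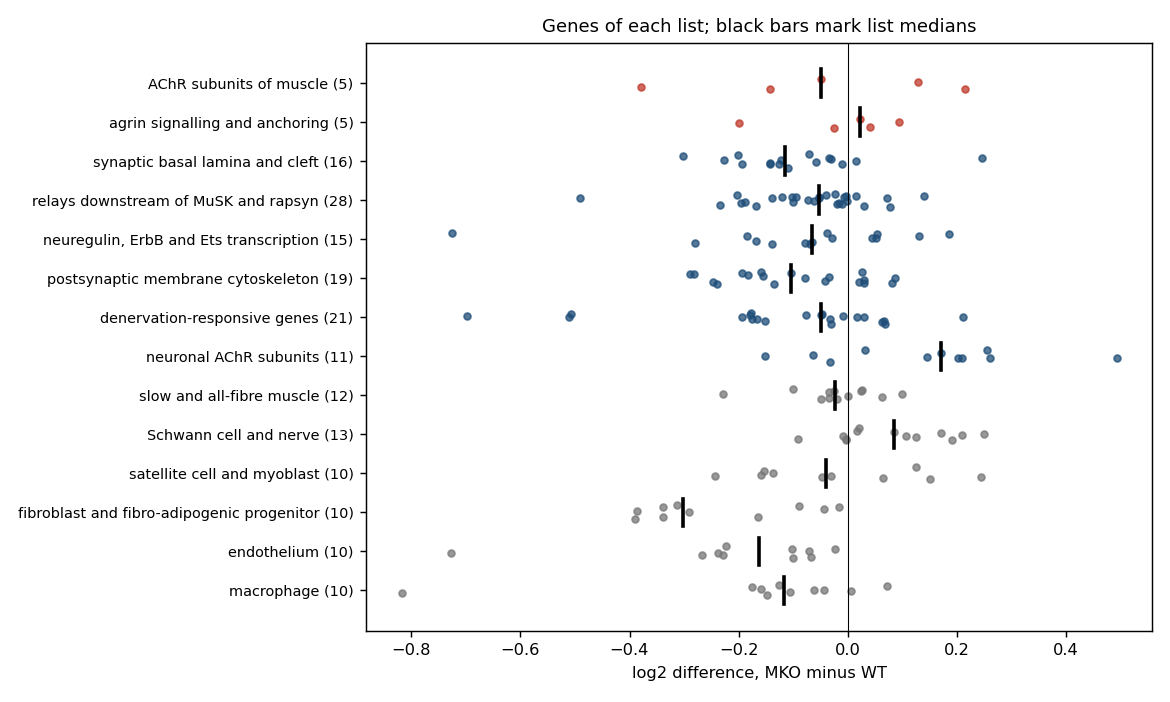
Log2 difference, MKO minus WT (horizontal axis), of each measured gene as a point, by list, with the number of genes in brackets and black bars at list medians; the 10 members are red, genes around them blue and cell type markers grey. The medians of the member lists (−0.05 and 0.02) lie near 0, and Myh3, Ankrd1 and Myog are the 3 lowest points of the denervation list.

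Neuronal acetylcholine receptor subunits, paralogues of the muscle subunits, were mostly dim, by their means over the list on each array. MKO replicate 1 had the highest mean (4.33, against 3.97 and 3.89 on the other MKO arrays and 3.88 to 3.97 in WT). Of all genes, 46.6% were higher, and limma called 4.33% at an unadjusted p under 0.05 in either direction (2.41% lower). Of the 11 neuronal subunits, 8 were higher with a median of 0.17, and without MKO replicate 1, 7 were with a median of 0.09. Among them 1 was under an unadjusted p of 0.05. This was Chrna2, at 5.90, 5.70 and 4.96 in WT and at 6.08, 5.77 and 6.18 in MKO, a difference of 0.49 (SE 0.21, limma adjusted p = 0.9997) with overlapping arrays and a low WT replicate 3. Markers of Schwann cells and nerve, the other cells at the junction, were dim too. Their mean lay between 4.13 and 4.18 in WT and between 4.18 and 4.30 in MKO, with 9 of 13 higher, a median of 0.08 and 0 under an unadjusted p of 0.05. Satellite cell and myoblast markers were split, 4 of 10 higher and 6 lower, with a median of −0.04. Macrophage markers were lower in 8 of 10, with a median of −0.12, and 1 of them was under that p. This was Cd68, at 6.36, 7.08 and 5.89 in WT and at 5.24, 5.58 and 6.06 in MKO, a difference of −0.82 (SE 0.26, limma adjusted p = 0.9997) with overlapping arrays.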

How the data were processed

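RNA of 3 WT and 3 MKO soleus samples, labelled biological replicates, was hybridised to Affymetrix Mouse Gene 2.0 ST arrays. The authors deposited log2 values made by robust multi-array averaging (RMA) in Affymetrix Expression Console, per the submitters' processing notes; versions, genome build and annotation release were not stated there. The 269751 rows were treated as exon-level probe sets. In the platform annotation, which is old, 233753 rows named 1 gene and were used, while 5106 named several genes and 30892 named none. Promoters are RefSeq sequences of GRCm38.p6, with 7 of the 10 members matched.

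Gene values were means of probe sets. The difference MKO minus WT came from limma 3.58.1 under R 4.3.3 (eBayes with a variance trend, two-sided, Benjamini-Hochberg over all genes or all rows, threshold 0.05), tested on simulated data, with tables made in Python 3.11.15. Precision is limited by having 3 arrays a group. The LPE test named in the series' design was re-implemented as 1 of 16 alternatives, and leaving out each member's probe set of largest difference was added after seeing the data. Of 183 list entries outside the members, 175 were measured, 2 by a synonym.

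The members and lists were chosen with earlier results of these data known. Named genes were Gna13, the members with their extreme probe sets, and up to 4 genes per list with the lowest p. Other probe sets were named after their values were seen.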

Additional observations from a re-analysis of the deposited data

How the results depend on the processing

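The adjusted p of every member stayed above 0.05 under all alternatives that tested it (Chrng, a dim gene, was left out by the filter on gene level). Chrna1, Chrnb1, Chrne, Agrn and Lrp4 kept their direction under every alternative, with ranges of 0.02 to 0.27, −0.51 to −0.17, 0.05 to 0.22, −0.25 to −0.02 and 0.00 to 0.16. The others had differences near 0 that changed sign. Chrnd was 0.0890 by the LPE test, −0.1565 with probe sets above the median level and, with an array left out, −0.119 to 0.0838 (highest without WT replicate 3). Chrng was 0.147 with probe sets above the median level, 0.0207 with the median of probe sets, 0.0047 without its probe set of largest difference and, with an array left out, −0.359 to 0.0705 (highest without MKO replicate 3). Musk was −0.0005 with probe sets above the median level, and across arrays left out it ranged from −0.113 to 0.188 (below 0 without MKO replicate 3, WT replicate 1 or WT replicate 3). Dok7 was −0.0536 without its probe set of largest difference and, with an array left out, −0.0307 to 0.0946 (below 0 without MKO replicate 2, MKO replicate 3 or WT replicate 2). Rapsn was 0.0255 with array weights, 0.0017 with the median of probe sets, 0.0193 after quantile normalization, 0.0560 without its probe set of largest difference and, with an array left out, −0.0977 to 0.0279 (above 0 without MKO replicate 1 or WT replicate 3). The cause of these turns was not tested.

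The count of members under an unadjusted p of 0.05, which is 1 (Chrnb1), was 0 by the LPE test, with array weights, probe sets above the median level, median centring, the median of probe sets, no variance trend or without the probe set of largest difference, and between 0 and 1 with an array left out (0 without MKO replicate 1, WT replicate 1 or WT replicate 2). The count of members with groups apart, which is 1 (Agrn), was 0 after median centring, with the median of probe sets or without the probe set of largest difference, 2 after quantile normalization (Agrn and Chrnb1), 1 with probe sets above the median level (Chrnb1 in place of Agrn), and between 1 and 4 with an array left out. It was 4 without WT replicate 3 (Chrna1 and Chrne higher, Chrnb1 and Agrn lower) and 2 without MKO replicate 1 (Agrn lower, Dok7 higher) or MKO replicate 2 (Agrn and Chrnb1 lower). Of all genes, 20.7%, 21.2% and 17.3% had groups apart without those arrays, against 9.25% with all 6 and 10.4% after quantile normalization. Over all genes, adjusted calls were 25 by the LPE test, 1 with array weights and 0 to 1 with an array left out (1 without WT replicate 1 and 1 without WT replicate 3), against 0. Unadjusted calls, 1002 (444 higher and 558 lower), were 500 for genes above the median level, which tests fewer genes, 1805 with array weights, and 693 to 1561 with an array left out (highest without MKO replicate 3). Median centring turned the split to 545 higher and 354 lower. With the replicate number as a block, Chrnb1 kept its difference of −0.38 (limma unadjusted p = 0.0288, adjusted p = 0.9999) and 873 genes were under an unadjusted p of 0.05. Deviations of same-numbered arrays correlated at −0.09, 0.09 and −0.24 over all genes, and those of differently numbered arrays at −0.23 to 0.30. With 3 arrays a group these values cannot decide whether the numbers pair the arrays.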
